A study of Homo sapiens with 2 samples.

Results

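The SOX transcription factors described here are the SOXD genes SOX5, SOX6 and SOX13, the SOXE genes SOX8, SOX9 and SOX10, the SOXF genes SOX7, SOX17 and SOX18, and SOX15, the only SOXG gene of humans. These 10 genes were taken by symbol from the 24462 gene symbols counted in both libraries, and none of them stood on more than 1 row. RNA was sequenced from 1 library of H9 human embryonic stem cells (hESC), an established pluripotent line, left undifferentiated, and from 1 library of neural precursor cells (NPC) that had been derived from H9 in co-culture with MS5 cells, a mouse stromal feeder line. The human cells of both groups therefore share the genome of 1 line, and no genetic change or further agent is named in the labels. Whether feeder cells were removed before RNA was taken is not given in the sources used here. The comparison asks how the NPC differed from the line they were made from.

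SOX proteins bind DNA through a high mobility group (HMG) box, which fits into the minor groove of short AT-rich sites and bends the helix. The letter of a group reflects the likeness of its members. SOXD proteins lack a strong activation domain of their own and act mostly as partners of other factors, SOXE proteins are activators of glia, neural crest and cartilage, SOXF proteins serve the endothelium and the endoderm, and SOX15 is known from placenta, muscle and pluripotent cells. In the developing nervous system SOX9 supports neural stem cells and the start of gliogenesis, SOX10 the peripheral glia, melanocytes and oligodendrocytes, and SOX5 and SOX6 the choice between subtypes of cortical neurons and the timing of differentiation.

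The kinship of the genes is visible in the DNA that encodes the start of the HMG box. The longest exact stretch shared by the SOX9 and SOX10 transcripts of GENCODE 29 is 45 bases of coding sequence, shown here because it is also where sequencing reads of different members are hardest to tell apart. Each line gives the best match of 1 gene to that stretch, with bases that differ from the SOX9 sequence in capitals.
SOX9: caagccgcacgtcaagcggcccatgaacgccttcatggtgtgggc
SOX10: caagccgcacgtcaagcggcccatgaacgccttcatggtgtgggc
SOX8: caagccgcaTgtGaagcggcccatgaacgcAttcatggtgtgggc
SOX18: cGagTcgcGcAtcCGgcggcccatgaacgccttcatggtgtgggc
SOX13: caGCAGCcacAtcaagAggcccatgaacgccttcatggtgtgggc
SOX5: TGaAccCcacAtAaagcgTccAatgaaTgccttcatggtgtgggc
SOX6: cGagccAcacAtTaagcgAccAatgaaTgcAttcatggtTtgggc
SOX15: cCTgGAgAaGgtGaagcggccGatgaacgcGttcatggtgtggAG
SOX8 differed from SOX9 at 3 of these bases, SOX18 at 6, SOX13 at 7, SOX5 and SOX6 at 9 each, SOX7 and SOX17 at 10 each and SOX15 at 11. No stretch of 50 bases was shared between any pair of the 10 genes. SOX13, SOX8, SOX9, SOX10, SOX17, SOX18 and SOX15 shared no such stretch with the transcripts of any other gene on either strand. SOX5 shared 0.0722% of its stretches with SOX5P1 and SOX6 shared 0.454% with MIR6073. SOX7 shared most, since 38.5% of its stretches of 50 bases also lie in transcripts of PINX1, a gene with 1051 hESC and 251 NPC reads, so the few reads counted for SOX7 are uncertain.

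Sequencing depth was 19686728 counted reads for the hESC and 24065750 for the NPC. Counts were scaled to CPM, the usual share of the effective library size, a gene was called measured at 5 CPM or more in either library, and such a gene counted as higher or lower in the NPC when the nearer bound of its 95% counting interval was at least 2-fold from no change. The threshold of 5 CPM stood for 86.9 hESC reads or 136 NPC reads. There was no replicate, so no test between conditions exists and the intervals hold counting error only. The labelled identities were checked against markers. All 14 pluripotency markers were measured and lower in the NPC library, with a median log2 ratio of -7.39 (-6.91 with the gene at 0 reads set to its bound). POU5F1 had 21886 and 18 reads and was 1851-fold lower (interval 1204 to 3211), and TDGF1 was 1398-fold lower (862 to 2648). Of 12 measured neural progenitor markers 11 were higher and none was lower, with a median of 6.52 (6.32 with the gene at 0 at its bound), among them ZIC1 and NR2F1, with 4 and 1 hESC reads. NES, with 355 and 366 CPM, was not called. Of the 11 higher markers 3 had passed the threshold in the hESC library too, and of the 14 lower markers 2 in the NPC library. For the rest of both sets the opposite call was not open.

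By CPM the SOX genes split into 5 that passed the threshold in the NPC library and 5 that stayed below it in both. CPM takes no account of length, and per kilobase the hESC intervals of SOX15, below the threshold, and SOX8, above it, overlapped. SOX5, SOX6 and SOX9 were higher in the NPC library, SOX13 was lower, and SOX8 leaned higher without a call. SOX10, SOX7, SOX17, SOX18 and SOX15 stayed under 5 CPM in both libraries. Thus 3 of the 5 measured members were higher and 1 was lower, while 19.6% of all 13535 measured genes were higher and 19.8% were lower (2649 and 2683 genes), 39.4% in all. With a threshold of 1 CPM the same shares were 20.4%, 18.9% and 39.3%, with 20 CPM 18.0%, 21.6% and 39.6%, with none 16.6%, 15.3% and 32.0%, and with 4-fold in place of 2-fold 9.13%, 7.26% and 16.4%. The members gave 3 higher and 1 lower under each of these, except that SOX13 was no longer lower at 4-fold. When counts were scaled to the library total, 3679 genes were higher and 1796 lower, and 4 members were higher and 1 lower. SOX5 and SOX6 reached 5 CPM in NPC only, so that a lower call was not open to them. In bulk RNA, a larger share of cells that express a gene and more RNA per cell cannot be told apart.

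**Figure D1:**
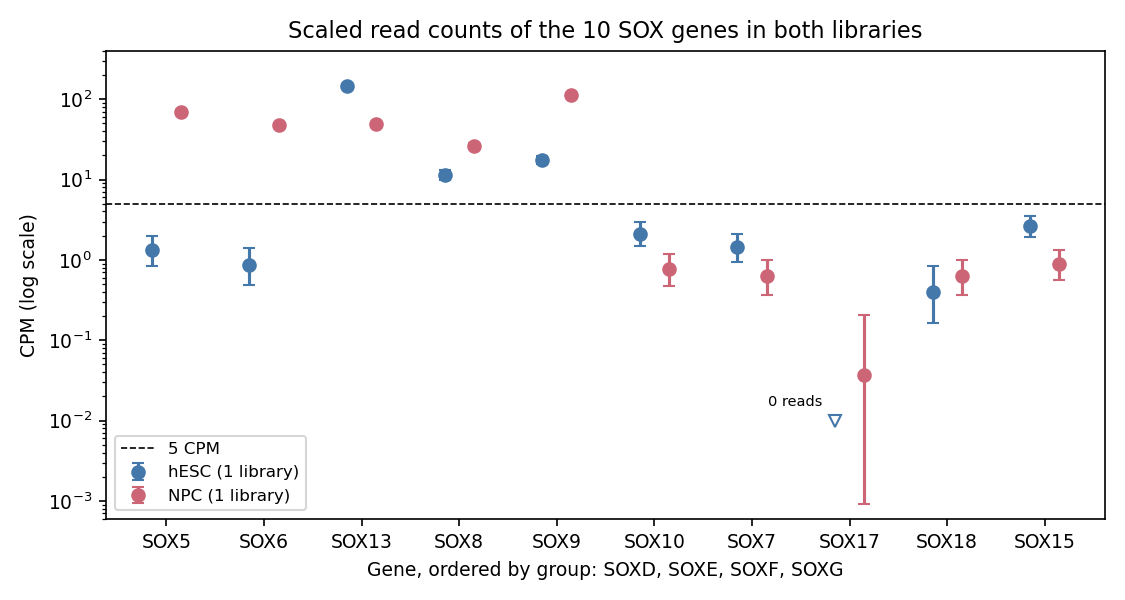
Scaled read counts in CPM (log axis) of the 10 genes in the hESC and NPC library, 1 library each; bars are 95% Poisson counting intervals and the dashed line marks 5 CPM. SOX5 and SOX6 sit near 1 CPM in the hESC library and at 70.1 and 47.3 CPM in the NPC library, SOX13 has the opposite order, and SOX10, SOX7, SOX17, SOX18 and SOX15 lie below the line in both.

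Among the SOXD genes, SOX5 and SOX6 went from near absence to clear expression together. SOX5, which in the cortex controls the fate and migration of corticofugal neurons, had 23 reads in the hESC library (1.32 CPM) and 1908 in the NPC library (70.1 CPM). It was 51.9-fold higher (35.2 to 83.8). SOX6, which acts in interneurons of the medial ganglionic eminence and in erythroid cells, had 15 reads (0.863 CPM) and 1287 reads (47.3 CPM). It was 53.1-fold higher (33.1 to 98.2), and the intervals of the 2 ratios overlapped over most of their length. Reads of SOX5 stood to those of SOX6 as 1.53 to 1 in the hESC library (0.766 to 3.16) and as 1.48 to 1 in the NPC library (1.38 to 1.59), a comparison that scaling does not touch. The log2 ratios of 5.70 and 5.73 lay at percentiles 98.6 and 98.6 of all measured genes.

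SOX13, the SOXD gene best known as a partner of TCF1 in gamma delta T cells, went the other way. It had 2559 reads in the hESC library (147 CPM) and 1349 in the NPC library (49.6 CPM), and was 2.97-fold lower (2.78 to 3.17). SOX13 outnumbered SOX5 216-fold in the hESC library per length (reads over the length of the longest annotated transcript), but 1.37-fold in the NPC library. By coding length SOX5 stood above SOX13 in the NPC library, and by reads SOX5 stood to SOX13 as 1.41 to 1 there (1.32 to 1.52). Summed over the group, SOXD reads came to 149 CPM and 167 CPM, a ratio of 1.12 (1.07 to 1.17). By scaled reads the group total was thus nearly level while its make-up changed. That total takes no account of length, and the longest transcripts have 6975 bases for SOX5, 8865 for SOX6 and 3587 for SOX13. Per length, the fall of SOX13 was larger than the rise of SOX5 and SOX6 together, so a total per length was not level. Scaling to the library total would shift the log2 ratio of the group, 0.16, upward by 0.36.

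Bases upstream of the starts were at hand for SOX5, SOX6 and SOX13 only, and are shown for these genes. Starts from the RefSeq table in hand (build GRCh38.p14) were taken for these 3 of the 10 genes, with 5 starts for SOX6, of which the most upstream one is shown. Each line holds the 250 bases before the start on the strand of the gene, and capitals mark matches on either strand. The motifs searched were the GC box GGGCGG, the CCAAT box, the promoter element TATAAA, the SOX core AACAAT, the SOX and TCF core ACAAAG, the homeodomain core TAATTA, the octamer ATTTGCAT and the cAMP response element TGACGTCA.
SOX5, chr12:24562492-24562741, minus strand: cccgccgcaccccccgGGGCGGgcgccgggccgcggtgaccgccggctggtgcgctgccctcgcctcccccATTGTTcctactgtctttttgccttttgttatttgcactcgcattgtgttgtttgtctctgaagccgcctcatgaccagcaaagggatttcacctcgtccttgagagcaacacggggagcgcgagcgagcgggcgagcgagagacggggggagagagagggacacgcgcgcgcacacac
SOX6, chr11:16738478-16738727, minus strand: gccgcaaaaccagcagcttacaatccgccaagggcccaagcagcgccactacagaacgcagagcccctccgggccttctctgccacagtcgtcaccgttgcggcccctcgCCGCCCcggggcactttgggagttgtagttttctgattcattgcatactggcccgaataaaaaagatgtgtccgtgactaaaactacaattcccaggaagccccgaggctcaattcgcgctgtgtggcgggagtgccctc
SOX13, chr1:204072865-204073114, plus strand: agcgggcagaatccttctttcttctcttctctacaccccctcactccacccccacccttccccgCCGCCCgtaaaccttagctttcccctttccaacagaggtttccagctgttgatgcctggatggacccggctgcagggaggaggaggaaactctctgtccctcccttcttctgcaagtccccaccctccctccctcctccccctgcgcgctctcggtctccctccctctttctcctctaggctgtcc
Each of the 3 windows held 1 GC box match, as did 42.6% of 35116 promoter windows of the same length. Of the windows shown, SOX5 held an AACAAT match, found in 8.98% of all windows, and windows at other SOX6 starts held matches to the SOX core, the CCAAT box, the TATAAA element and the SOX and TCF core. CCAAT (32.0% of windows), TATAAA (10.7%), ACAAAG (13.7%), TAATTA (4.35%), ATTTGCAT (1.63%) and TGACGTCA (1.65%) had no match in the 3 windows shown. An E box (CANNTG, 61.8% of all windows) was found once in the SOX13 window, in neither of the other windows shown, and in each window at the other SOX6 starts. The windows shown for SOX5 and SOX6 held 27 and 17 CG dinucleotides and that of SOX13 held 8, against a median of 11. Windows at the other SOX6 starts held 1, 0, 0 and 2. These motif and base counts are letter matches only, and nothing was measured on start use or factor binding.

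Of the SOXE genes, SOX9 was the most abundant member in the NPC library. SOX9 had 302 reads in the hESC library (17.4 CPM) and 3046 in the NPC library (112 CPM). It passed the threshold in both libraries and was 6.44-fold higher (5.72 to 7.28), at percentile 92.7 of all measured genes. SOX8, which overlaps with SOX9 and SOX10 in glia and neural crest, had 196 reads (11.3 CPM) and 718 reads (26.4 CPM), a ratio of 2.34 (1.996 to 2.76). The lower bound of that interval fell just short of 2-fold, so SOX8 was not called, and it was called with the library total (log2 ratio 1.58) and with upper-quartile factors (1.25). Reads of SOX9 stood to those of SOX8 as 1.54 to 1 (1.28 to 1.85) for hESC and as 4.24 to 1 (3.91 to 4.61) for NPC. SOX10 had 37 reads (2.13 CPM) and 21 reads (0.772 CPM), a ratio that was 2.73-fold in favour of the hESC library (1.57 to 4.96), below the threshold in both. For each SOX10 read the NPC library held 145 SOX9 reads (94.7 to 235), against 8.16 (5.79 to 11.8) in the hESC library. The antisense RNA SOX9-AS1 had 2 and 26 reads, below the threshold, and shared no stretch of 50 bases with SOX9.

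**Figure D2:**
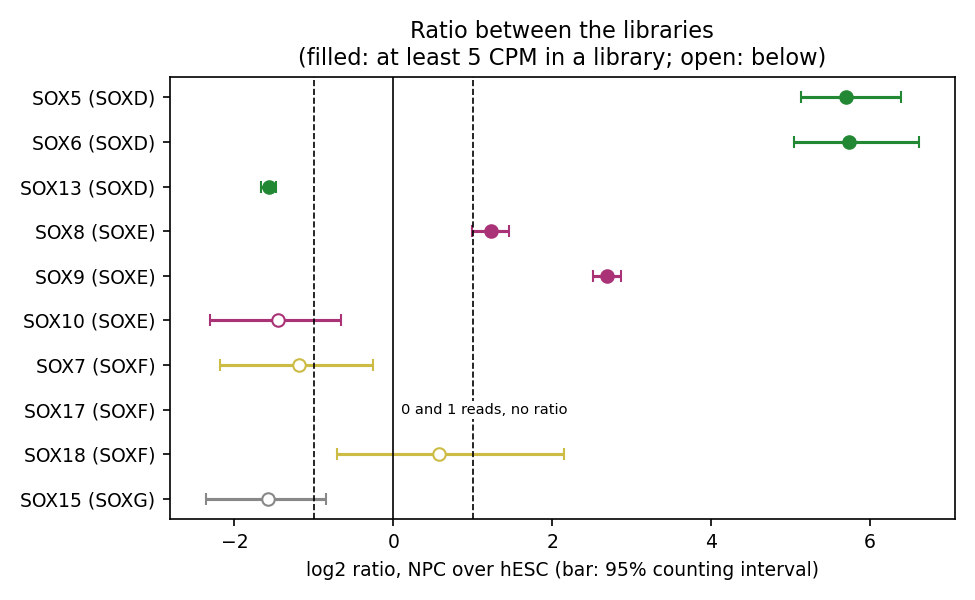
Log2 ratio of scaled counts, NPC over hESC, for each gene with its 95% counting interval; dashed lines mark 2-fold, filled points had at least 5 CPM in a library. SOX5 and SOX6 lie together near 5.7, SOX9 at 2.69, and the interval of SOX8 touches the 2-fold line.

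The SOXF genes were hardly detected. SOX7 had 25 reads in the hESC library (1.44 CPM) and 17 in the NPC library (0.625 CPM), and SOX18, a factor of lymphatic and vascular endothelium, had 7 and 17 reads (0.403 and 0.625 CPM). The interval of SOX18 spanned equality (ratio 1.49, 0.612 to 4.43). SOX17, the endoderm and germ cell factor, had 0 reads in the hESC library, which allows up to 0.173 CPM, and 1 read in the NPC library. No fold is given for it, as both counts are at or below the floor of 3 reads. Together the group held 32 and 35 reads. SOX15 had 46 reads (2.65 CPM) and 24 reads (0.882 CPM), 2.97-fold fewer in the NPC library by scaled counts (1.79 to 5.14), also below the threshold.

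Per length, the order of the members changed between the libraries. Levels are given as reads per kilobase of the longest GENCODE transcript, scaled as for CPM (RPKM). In the hESC library SOX13 led with 41.0 RPKM, followed by SOX9 with 4.42, SOX8 with 2.72 and SOX15 with 1.90. The intervals of SOX8 and SOX15 overlapped, as did those of each neighbouring pair from SOX10 (0.739) through SOX7, SOX18 and SOX5 to SOX6 (0.0973). In the NPC library SOX9 led with 28.5 RPKM, followed by SOX13 with 13.8, SOX5 with 10.1, SOX8 with 6.36 and SOX6 with 5.34, all with separate counting intervals, and SOX15 came next with 0.632. The neighbouring pairs from SOX15 through SOX18 and SOX10 to SOX7 had overlapping intervals there.

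**Figure D3:**
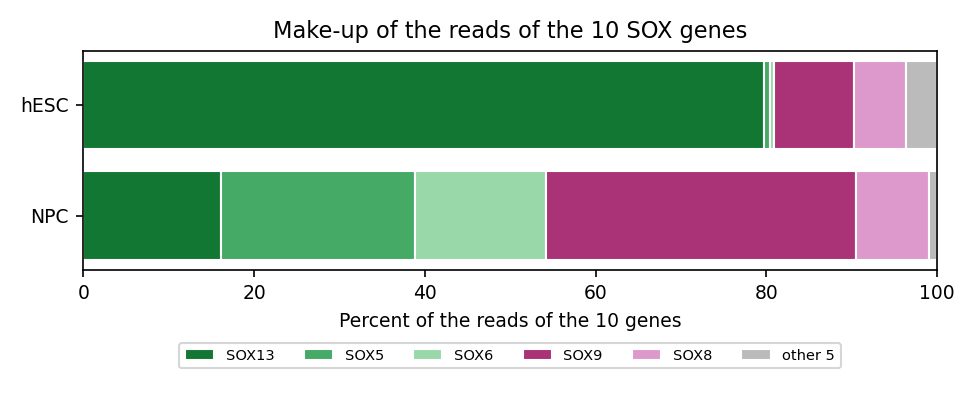
Percent of all reads of the 10 genes that each gene took, in the hESC library (3210 reads) and the NPC library (8388 reads). SOX13 fills 79.7% of the hESC bar, while SOX9, SOX5, SOX13 and SOX6 divide most of the NPC bar.

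As a share of the reads of all 10 genes, SOX13 took 79.7% in the hESC library (exact binomial interval 78.3 to 81.1) and 16.1% in the NPC library (15.3 to 16.9). SOX9 took 9.41% (8.42 to 10.5) and 36.3% (35.3 to 37.4). SOX5 took 0.717% (0.455 to 1.07) and 22.7% (21.9 to 23.7), and SOX6 took 0.467% (0.262 to 0.770) and 15.3% (14.6 to 16.1). SOXE as a group went from 16.7% (15.4 to 18.0) to 45.1% (44.1 to 46.2). Summed over the 10 genes, the level was 185 CPM against 308 CPM in NPC, a ratio of 1.67. Of the other SOX genes, 7 of 9 were measured, 3 were higher (SOX1, SOX21 and SOX11) and none was lower. Over all measured genes 19.6% were higher and 19.8% lower. Of the 3 higher genes 1 had passed the threshold in the hESC library too. SOX1 was 103-fold higher (55.6 to 255) and SOX21 11.3-fold higher (7.98 to 17.2). SOX2, with 3700 and 7698 reads, had a ratio of 1.33 and was not called.

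By the values in both libraries, the genes nearest to SOX5 were NPNT and TGFB2, at distances of 0.0750 and 0.126 in log2(CPM + 1). NPNT, which encodes the matrix protein nephronectin, had 21 and 1887 reads, and TGFB2 had 24 and 2078. CELF3 (0.117) and FGF18 (0.140) were nearest to SOX6, CLK1 (0.0389) and NCOA6 (0.106) to SOX9, and SDAD1 (0.0545) and CHORDC1 (0.0633) to SOX13. The likeness rests on 2 libraries only.

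Genes of the programmes in which these factors are known to work were then described. Over all measured genes the median log2 ratio was -0.09, with 19.6% higher and 19.8% lower. In every list, a gene that passed the threshold in 1 library only could not be called higher in the other library. Radial glia and astroglia genes, a setting of SOX9, were mostly higher: 12 of 17 measured were higher and 1 lower, with a median of 2.41, and 7 of the 12 had passed the threshold in the hESC library too. NFIX, a nuclear factor I gene of gliogenesis, was 123-fold higher (74.4 to 240), and ID4, an inhibitor of basic helix-loop-helix factors, was 65.8-fold higher (53.0 to 83.7). GJA1, the gap junction gene of connexin 43, was 2.54-fold lower (2.44 to 2.64), a call that was lost with the library total and at 4-fold, where 0 genes of the list were lower. The astrocyte genes GFAP (35 and 44 reads), AQP4 (45 and 15) and ALDH1L1 (12 and 13) were below the threshold in both libraries.

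Cartilage matrix genes, the classical targets of SOX9 with SOX5 and SOX6, did not move as a block. Of 9 measured, 4 were higher and 2 lower, with a median of 0.86. The collagen gene COL9A2 was 15.0-fold higher (12.3 to 18.9), and COL2A1, the type II collagen gene, had 247 and 2988 reads and was 7.72-fold higher (6.79 to 8.84). COL11A1 and COL11A2 were the other higher genes. LECT1, the chondromodulin gene, was 78.4-fold lower (62.1 to 102), and COL10A1, a gene of hypertrophic cartilage, was 4.22-fold lower (2.88 to 6.43). The cartilage proteoglycan gene ACAN had 78 and 7 reads and the matrix gene COMP 10 and 1, both below the threshold, and MATN4 and UCMA had 0 NPC reads. With no threshold on CPM, there were 5 higher and 6 lower cartilage genes and the median was -0.87. With the library total COL10A1 fell under the threshold, 1 gene was lower and the median was 1.92.

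The settings of SOX10 were mixed. Among 12 measured genes of neural crest, Schwann cells and melanocytes, 5 were higher and 6 lower, with a median of -1.15. The 5 higher genes passed the threshold in NPC only, and 2 of the 6 lower genes had passed it in the NPC library too. TFAP2B, a neural border factor gene, had 0 and 603 reads, at least 128-fold higher against a floor of 3 hESC reads, and TFAP2A was 49.4-fold higher (23.1 to 168). NGFR, the neurotrophin receptor gene, was 12.6-fold lower (8.82 to 19.0), and PMEL, a melanosome gene, was 9.95-fold lower (8.09 to 12.5). The crest factor gene FOXD3 had 86 and 0 reads, below the threshold in both libraries. With no threshold, 9 of these genes were higher and 8 lower, and the median was 0.82. Of 8 measured oligodendrocyte lineage genes 1 was higher and 2 were lower, with a median of -0.20. Each of these called genes passed the threshold only in the library where it stood higher, so the opposite call was not open. PDGFRA, the receptor gene of oligodendrocyte precursors and of mesenchyme, was 7.84-fold higher (5.78 to 11.1), while MBP, the myelin basic protein gene, had 335 and 37 reads and was lower (interval 10.1-fold to 20.5-fold), and ZNF488 was 7.27-fold lower (4.77 to 11.9). OLIG2, the factor that specifies the lineage, had 50 and 21 reads.

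**Figure D4:**
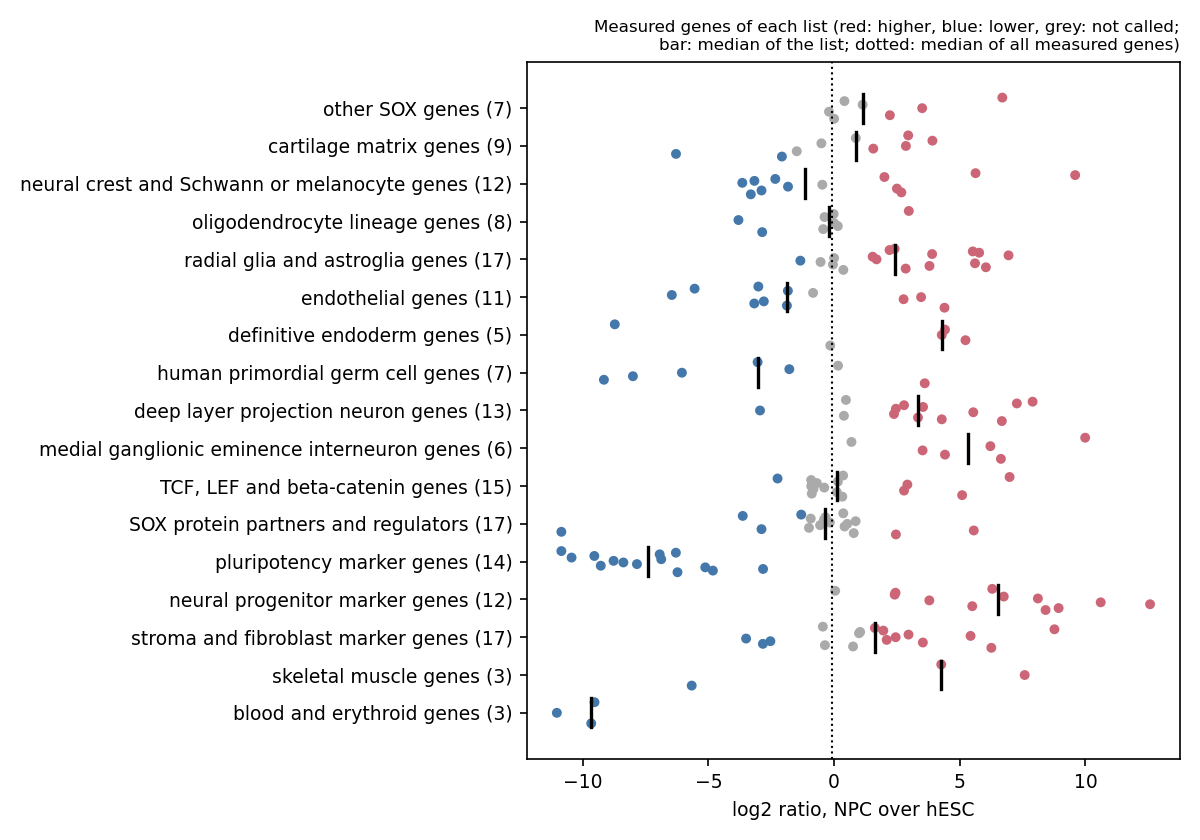
Log2 ratio, NPC over hESC, of every measured gene of each list (number measured in parentheses); the short bar is the median of the list and the dotted line the median of all measured genes (-0.09). Deep layer neuron genes and radial glia genes lie mostly to the right, pluripotency markers lie to the left, and the cartilage, neural crest and oligodendrocyte lists reach to both sides.

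The 2 lists around the SOXF factors differed in the sign of their medians. In the endothelial list 7 of 11 measured genes were lower and 3 higher, with a median of -1.88. Of the 7 lower genes 2 had passed the threshold in the NPC library too, and of the 3 higher genes 1 in the hESC library. Its median was -0.74 with no threshold, with 4 genes higher and 8 lower. TIE1, an endothelial receptor gene, had 140 and 2 reads, a ratio of 87.9 in favour of the hESC library (29.8 to 913), and FLT1, a VEGF receptor gene, was 46.9-fold lower (39.5 to 56.6). NRP1, a co-receptor of VEGF and semaphorins that neurons also express, was 21.0-fold higher (17.8 to 25.1), and EMCN, the endomucin gene, had 34 and 594 reads and was higher (interval 7.90-fold to 16.3-fold). The defining endothelial genes CDH5 (13 and 9 reads), PECAM1 (4 and 10) and VWF (8 and 8) were below the threshold in both libraries. In the definitive endoderm list 5 of 18 genes were measured, 3 higher and 1 lower, with a median of 4.28, and the 3 higher genes passed the threshold in NPC only. At 1 CPM there were 5 higher and 4 lower endoderm genes and the median was 1.31, and with no threshold the median was 1.03. CXCR4, a chemokine receptor gene also active in neurons, was 21.3-fold higher (15.3 to 31.5), TTR, with 2 hESC reads, had a ratio of 37.4 (12.7 to 389), and FOXA3 was at least 70.4-fold lower, with 135 and 0 reads. GATA4 had 1 and 1 reads, GATA6 2 and 7, and HNF4A 3 and 13. Human germ cell genes, a setting of SOX17 and SOX15, were lower in 5 of 7 measured cases and higher in 1, with a median of -3.04. Of those 5 lower genes 1 had passed the threshold in the NPC library too, and the higher gene passed it in NPC only. The pluripotency and germ line genes UTF1 (548 and 1 reads, a ratio of 572, 153 to 33934) and PRDM14 (575 and 3 reads, 257, 102 to 1459) were lower and ARID5B was 12.2-fold higher (8.82 to 17.8).

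Genes of neurons in which SOX5 and SOX6 act were then counted. Of 13 measured deep layer projection neuron genes 10 were higher and 1 lower, with a median of 3.34, and 2 of the 10 had passed the threshold in the hESC library too. FEZF2, the corticofugal fate factor gene, had 12 and 4664 reads and was 238-fold higher (142 to 481). RELN, on the list although its product reelin is made by Cajal-Retzius cells, was 102-fold higher (67.0 to 174). NEUROD6, also on the list, had 0 NPC reads. BCL11B, another corticofugal factor gene, had 7.71 and 10.7 CPM and was not called. CTGF was 7.72-fold lower (6.96 to 8.61). Of 17 genes of medial ganglionic eminence interneurons 6 were measured and 5 were higher, none lower, with a median of 5.31. All 5 passed the threshold in NPC only, so that a lower call was not open to them. NKX2-1, the factor gene of that region and of the hypothalamus, had 1 and 2387 reads, a ratio of 1017 (274 to 60272), and ERBB4 was 99.5-fold higher (56.6 to 218). LHX6, the factor above SOX6 in these interneurons, had 68 and 26 reads and was below the threshold. With the threshold at 1 CPM, 12 genes of this list were higher and 1 was lower.

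Around SOX13, 4 of 15 TCF, LEF and beta-catenin genes were higher (26.7%) and 1 was lower (6.67%), with a median of 0.11. The shares over all measured genes were 19.6% and 19.8%. LEF1 was 126-fold higher (87.3 to 199) and PYGO1 34.2-fold higher (21.3 to 63.3), while TCF7L1, the repressor TCF of pluripotent cells, was 4.76-fold lower (4.55 to 4.98). TCF7, the gene of TCF1, had 32.3 and 41.4 CPM and was not called. Among protein partners and regulators of SOX factors 2 of 17 measured genes were higher (11.8%) and 4 lower (23.5%), with a median of -0.35. POU3F2, a neural POU factor gene, was 47.1-fold higher (26.7 to 103) and MEF2C was 5.50-fold higher (3.74 to 8.66). POU5F1, given above, and BHLHE41, 12.4-fold lower (8.51 to 19.4), led the other side. CREBBP and EP300, coactivator genes of SOX9, had 181 and 328 CPM and 308 and 273 CPM and were not called.

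Markers of other cell types moved in the same libraries, and their part in the SOX values was not tested. In the list for stroma and fibroblasts 9 of 17 measured members were higher and 3 lower, with a median of 1.62. The whole list summed to 1807 CPM for hESC and to 2420 CPM for NPC. COL3A1 was 435-fold higher (254 to 912) and MGP, with 1 hESC read, had a ratio of 76.5 (20.3 to 4543), while THY1 was 11.3-fold lower (10.4 to 12.3) and TAGLN 5.80-fold lower (5.27 to 6.40). LUM had 1 and 91 reads and FAP 0 and 80. Of 14 skeletal muscle genes 3 were measured, MYH7 (192-fold higher, 66.1 to 1982), MYH3 (19.2-fold higher, 11.7 to 36.6) and TNNT1 (50.8-fold lower, 42.0 to 62.7), with a median of 4.26, and the myogenic factor genes MYF5 and MYF6 had no reads. Of 16 blood and erythroid genes 3 were measured and all 3 were lower, with a median of -9.67 (-8.45 with genes at 0 reads at their bound). These were the globin genes HBA1, HBA2 and HBB, with 710, 669 and 259 hESC reads and at most 1 NPC read, and HBA1 and HBA2 are near-identical copies whose reads may be shared.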

How the data were processed

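RNA-seq read counts of 2 libraries were used, 1 of hESC and 1 of NPC. The deposited values are raw counts per gene symbol, as whole numbers with different totals. Per the submitters' processing notes, TopHat, edgeR and the hg19 build were used, with no roles stated; the counting tool, strand setting, treatment of multi-mapped reads and annotation were not given in the sources used here. Per the labels' protocols, libraries were made from total RNA with a SMARTER mRNA-Seq kit.

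For the 286 symbols on several rows, the row with most reads was kept, which set aside 0.0878% of hESC and 0.107% of NPC reads. TMM factors (edgeR 4.0.16, R 4.3.3) were 0.884 and 1.13. Log2 ratios had 0.5 added to each count, folds are their antilogs, and intervals are exact Clopper-Pearson 95% counting intervals of the NPC share of a gene's reads (Python 3.11.15, scipy 1.17.1). Spread between cultures is outside these intervals, and without molecular identifiers 1 molecule can give several reads. A gene at 0 reads was set against a floor of 3 reads. Lengths came from GENCODE 29 (found for 97.7% of measured genes), promoters from RefSeq.

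The SOX genes and the 17 lists were chosen with earlier results of these data known. Named were all 10 SOX genes, up to 2 higher and 2 lower genes of each list by the farthest interval bound and, for each called SOX gene, the 2 nearest genes. Others (such as NES, COL2A1, ACAN, GFAP, OLIG2, BCL11B, LHX6, TCF7, CREBBP) were chosen after their values were seen. The code was tested on simulated counts. Alternatives were the library total, DESeq2 1.42.0 and upper-quartile factors, other CPM thresholds and folds, removal of mitochondrial and ribosomal protein genes, summed rows, log2(CPM + 1) and removal of the length trend (statsmodels 0.14.6).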

Additional observations from a re-analysis of the deposited data

How the results depend on the processing

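The calls of SOX5, SOX6, SOX9 and SOX13 were the same under all 7 alternatives run on each ratio. All 7 kept the threshold of 5 CPM. SOX10, SOX7, SOX17, SOX18 and SOX15 stayed below it, so no call was open to them there. SOX8 was called higher with the library total (log2 ratio 1.58), upper-quartile factors (1.25) and, by its point value, the log2(CPM + 1) difference (1.16). At 4-fold no SOX gene was lower (0), and 1236 genes were higher and 983 lower over all genes. With a threshold of 20 CPM 1684 genes were higher in all, and 31 list genes were lower against 49. By coding length, the rank was 7 for SOX5 and 8 for SOX18 in the hESC library, and 2 for SOX5, 3 for SOX13, 7 for SOX10 and 8 for SOX18 in the NPC library. As shares of reads per kilobase, SOXE was 15.2% and SOXG 3.66% in the hESC library, and SOXD 44.6%, SOXE 53.6%, SOXF 0.833% and SOXG 0.965% in the NPC library.

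The library total shifts every log2 ratio by 0.36. The median of all measured genes was 0.31 with it, 0.0101 with a threshold at 1 CPM and 0.11 with none. The median of the oligodendrocyte list was 0.16 and that of the SOX partner list 0.0104 with the library total. The median of the TCF list was -0.15 with the length trend removed. With no threshold the median was -0.87 for cartilage and 0.82 for neural crest genes. The cause was not tested. No paired analysis was possible because there is 1 library per group and no test. Counts under 87 hESC or 136 NPC reads lie below the threshold, and counting error limits SOX7, SOX10, SOX15, SOX17 and SOX18 most.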
